A study of Mus musculus with 4 samples.

Results

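Dppa2, Dppa4, Dppa3, Dppa5a, Utf1, Tdgf1 and Fgf4 are genes that mouse embryonic stem cells and the early embryo use and that most other tissues keep shut. They were taken by gene symbol, 7 of the 46406 rows of a gene table. The table holds ATAC-seq values from J1 cells, a mouse embryonic stem cell line, grown without feeder cells at the passage that the labels write as PN+8. In ATAC-seq the Tn5 transposase inserts adapters where DNA is accessible, and each value here counts the reads that fell on a gene's exons. The groups were control cells, labelled as wild type (2 libraries), and the same line with Zscan4 overexpressed (Zscan4 OE, 2 libraries). The labels give neither the vector nor the duration of overexpression, nor whether replicates were separate cultures. The p-values therefore reflect library-to-library spread, part or all of which may be technical. Zscan4 is a zinc finger protein of 2-cell embryos that the series title ties to breakdown of co-repressors and to more open chromatin. The comparison therefore asks whether the exons of these genes were more open in Zscan4 OE.

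Dppa2 and Dppa4 are partner proteins with a SAP DNA-binding domain that keep the promoters of developmental genes in a poised state and act upstream of Dux and the 2-cell program. Dppa3, also called Stella, is a maternal protein that protects the early genome from demethylation and limits the maintenance methyltransferase machinery. Dppa5a encodes a small RNA-binding protein of the KH-domain group. Utf1 is a chromatin protein of pluripotent cells, Tdgf1 (Cripto) is the co-receptor of the growth factor Nodal, and Fgf4 is the growth factor through which stem cells signal to themselves and to primitive endoderm. Utf1 and Fgf4 are textbook targets of Pou5f1 and Sox2, which act on an enhancer at the end of each gene.

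All 7 genes passed the filter on low values and had a log2 difference above 0 between Zscan4 OE and control, Fgf4 not when each library was centred on its median, and none passed the test. In 3 genes, Dppa4, Dppa5a and Tdgf1, both Zscan4 OE libraries lay above both controls. The groups overlapped in the other 4, Dppa2, Dppa3, Utf1 and Fgf4. Differences above 0 were common, at 62% of all 42989 rows tested. The share of rows with both Zscan4 OE values above both controls was 19.6%. With limma and Benjamini-Hochberg adjustment over all tested rows, 0 rows (0%) passed an adjusted p under 0.05, and the adjusted p of the 7 genes ran from 0.869 to 0.988. At an unadjusted p under 0.05 there were 0 of the 7 genes, against 6.42% of all rows, and voom on the recovered reads called 0 of the 7. The median log2 difference was 0.95 over the 7 genes and 0.28 over all tested rows, and 6 of the 7, all but Fgf4, lay above the latter. The median was 0.13 over the 15228 tested protein-coding rows with 20 reads or more, the class to which all 7 genes belong, of which 60.3% had a difference above 0 and 20.1% both Zscan4 OE values above both controls. The smallest exact permutation p that 2 libraries against 2 allow in a single gene is 0.333. In a bulk library a gene open in more cells and a gene more open in each cell cannot be told apart.

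The libraries were shallow, with totals from 1061428 to 4899494 reads, of which 9.38% to 12.8% fell on exons. RPKM, reads per kilobase of exon and per 1000000 reads of the library, is given here after each value was returned to its own library's total. Intervals are exact Poisson 95% limits and cover counting error only. The overexpressed gene gave no check of the labels, since 6 of 8 rows of the Zscan4 cluster were listed at 0 in every library and no library had over 1 read in the others. Core pluripotency genes, which define these cells, averaged 2.12, 1.23, 2.19 and 1.20 RPKM (control 1, control 2, Zscan4 OE 1, Zscan4 OE 2), above the 1.24, 0.892, 1.28 and 0.958 RPKM of all tested protein-coding rows. Markers of fibroblasts, the usual feeder cells, averaged 0.757, 0.858, 0.789 and 0.773 RPKM, below that level in each library. Primed epiblast markers (1.12, 0.76, 0.777 and 0.581) also lay below it in each. Primitive endoderm markers (1.23, 1.04, 1.1 and 0.973) lay above it in control 2 and Zscan4 OE 2. Trophectoderm markers (1.18, 0.859, 1.23 and 1.07) lay above it in Zscan4 OE 2.

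Dppa2 lies on chromosome 16 (48310274 to 48319513, GRCm38), and its counted exons span 1948 bp. The controls had 0.967 and 1.06 RPKM from 2 and 6 reads, and Zscan4 OE had 1.57 and 1.05 RPKM from 11 and 10 reads. Zscan4 OE 2 fell between the controls, so the groups overlapped. The control mean was 1.01 ± 0.0661 RPKM and the Zscan4 OE mean 1.31 ± 0.366 (SD, n = 2), with a log2 difference of 0.31 (SE 0.477, limma adjusted p = 0.916). Without Zscan4 OE 1 it was 0.04, and without Zscan4 OE 2 it was 0.58.

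Dppa4, the partner of Dppa2, lies 15981 bp before it on the same chromosome (48283735 to 48294292), with 1534 bp of counted exons. It had 0.614 and 0.674 RPKM in the controls, from 1 and 3 reads, the lowest mean of the 7 genes there. In Zscan4 OE it had 3.98 RPKM in library 1 and 1.2 in library 2, from 22 and 9 reads. Both Zscan4 OE values were above both controls, but they differed from each other by more than counting error, since the interval of library 1 (2.49 to 6.02) lay above that of library 2 (0.548 to 2.27). The log2 difference was 1.63 (SE 0.704, limma adjusted p = 0.869). Without Zscan4 OE 1 it was 0.80, and without Zscan4 OE 2 it was 2.46. Over summed reads Dppa4 was 3.61-fold higher in Zscan4 OE, with an exact counting interval of 1.28 to 14.1. This interval, like that of each such ratio below, leaves out the spread between libraries and is too narrow where replicates differ. The same ratio for Dppa2 was 1.22 (0.521 to 3.19), and whether the 2 neighbours differed was not tested.

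Dppa3 lies on chromosome 6 (122626424 to 122630271) between Gdf3 and Nanog, with 892 bp of counted exons and the fewest reads of the 7 genes, 21 in all. The controls had 1.06 and 0.772 RPKM from 1 and 2 reads. Zscan4 OE 1 had 4.66 RPKM from 15 reads and Zscan4 OE 2 had 0.686 from 3, the highest and the lowest value of the 4 libraries. Their intervals, 2.61 to 7.69 and 0.142 to 2.01, did not overlap. The log2 difference of 0.95 (SE 0.979, limma adjusted p = 0.869) rested on Zscan4 OE 1, and without that library it was −0.35. The ratio over summed reads was 2.8 (0.817 to 14.8). Only Dppa3 and Dppa4, of the 7 genes, had replicate intervals that lay apart, in both cases in the Zscan4 OE group. The controls had fewer reads on each gene, so a like gap could go unseen there. For Utf1 the control values of 4.61 and 1.12 RPKM had overlapping intervals, 1.69 to 10 and 0.306 to 2.87.

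Dppa5a lies on chromosome 9 (78367052 to 78368199) and has the shortest counted exons of the 7 genes, 619 bp. It was listed at 0 in control 1, where 3 reads, the one-sided 95% limit of a count of 0, would be 4.57 RPKM. The upper end of the interval used here for all values is 5.61 RPKM, above both Zscan4 OE values. Control 2 had 1.67 RPKM from 3 reads. Zscan4 OE had 5.38 and 3.3 RPKM from 12 and 10 reads, both above the controls. Dppa5a was the lowest but one of the 7 genes in controls (0.835 ± 1.18 RPKM) and the highest in Zscan4 OE (4.34 ± 1.47 RPKM, SD, n = 2), the 99.1 percentile of protein-coding rows. Its log2 difference of 3.36 (SE 1.47, limma adjusted p = 0.869) depended on the value of 0 and on the constant of 0.1 RPKM added before taking logs. It was 1.29 without control 1, 5.43 without control 2, and 1.68 with a constant of 1. The ratio over summed reads was 3.42 (1.03 to 17.8). RefSeq annotates the pseudogenes Dppa5b and Dppa5c near Dppa5a, and neither symbol has a row here. How the authors' counting treated reads that match several copies is not stated, so these values are uncertain to that degree.

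**Figure D1:**
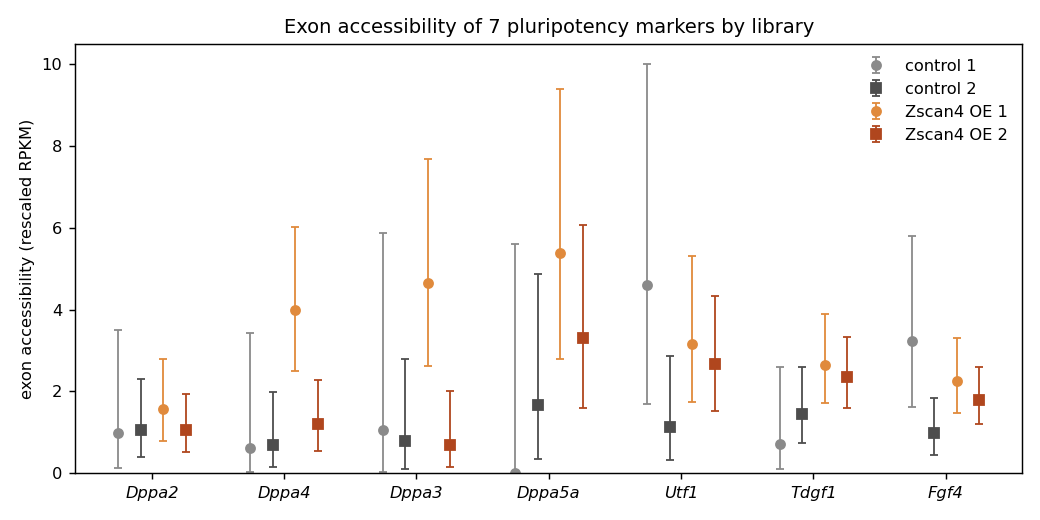
Exon accessibility in rescaled RPKM (y axis) of each gene (x axis) in the 4 libraries, with points for the libraries and bars for exact Poisson 95% counting intervals. Dppa4, Dppa5a and Tdgf1 have both Zscan4 OE points above both control points, while control 1 is the highest library for Utf1 and Fgf4.

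Tdgf1 lies on chromosome 9 (110939608 to 110946158), with 2622 bp of counted exons and 68 reads in all. The controls had 0.719 and 1.44 RPKM from 2 and 11 reads. Zscan4 OE had 2.64 and 2.34 RPKM from 25 and 30 reads, both above the controls and close to each other. The means were 1.08 ± 0.514 and 2.49 ± 0.219 RPKM (SD, n = 2), so their difference was larger than the spread within either group. The log2 difference of 1.20 (SE 0.517) had an adjusted p of 0.869 (limma). It stayed between 0.74 and 1.66 with any 1 library left out. Over summed reads Tdgf1 was 1.97-fold higher in Zscan4 OE (1.06 to 3.94). The pseudogene Tdgf1-ps1 on chromosome 16 had 0 reads in the controls and 1 in each Zscan4 OE library, and Tdgf1-ps2 had 1 read, in control 2.

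Utf1 lies on chromosome 7 (139943856 to 139945112), and its 1227 bp of counted exons take up 97.6% of the gene's span. Control 1 had 4.61 RPKM from 6 reads and control 2 had 1.12 from 4. Zscan4 OE had 3.16 and 2.66 RPKM from 14 and 16 reads, between the controls. The means were nearly the same, 2.86 ± 2.46 RPKM for the controls against 2.91 ± 0.356 for Zscan4 OE (SD, n = 2), and the log2 difference was 0.32 (SE 0.771, limma adjusted p = 0.965). It was 1.30 without control 1 and −0.65 without control 2. The ratio over summed reads was 1.4 (0.665 to 3.21).

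Fgf4, also on chromosome 7 (144861386 to 144865245), had 3195 bp of counted exons and the most reads of the 7 genes, 74. Control 1 had 3.24 RPKM from 11 reads and control 2 had 0.97 from 9. Zscan4 OE had 2.26 and 1.79 RPKM from 26 and 28 reads, again between the controls. Mean RPKM was slightly lower in Zscan4 OE (2.02 ± 0.331) than in controls (2.11 ± 1.61, SD, n = 2), while the log2 difference was above 0, at 0.16 (SE 0.692, limma adjusted p = 0.988). It was 0.98 without control 1 and −0.66 without control 2. With each library centred on its median it was −0.12. Over summed reads the ratio was 1.26 (0.741 to 2.22).

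In controls the order of mean RPKM was Utf1, Fgf4, Tdgf1, Dppa2, Dppa3, Dppa5a and Dppa4, and only Utf1 (96.5) and Fgf4 (91.5) were above the 90 percentile of protein-coding rows. The rank of these 2 came from control 1, since in control 2 Dppa5a (1.67 RPKM) and Tdgf1 (1.44) lay above both. No gene differed from the next in that order by more than the larger of their SDs. In Zscan4 OE the order was Dppa5a, Utf1, Dppa3, Dppa4, Tdgf1, Fgf4 and Dppa2. There 6 of the 7 means were above the 90 percentile, from 90.3 for Fgf4 to 99.1 for Dppa5a, and Dppa2 was at 72.2. The rank of Dppa3 (95.6) came from library 1 of this group, at 4.66 RPKM. Its value of 0.686 from library 2 lay below that library's median over protein-coding rows, 0.836. The mean of Dppa4 (95.2) also joined unlike values, 3.98 from library 1 and 1.2 from library 2. The step from Fgf4 (2.02 ± 0.331) to Dppa2 (1.31 ± 0.366) exceeded their SDs, and the step from Dppa5a (4.34) to Utf1 (2.91 ± 0.356) stayed within the SD of Dppa5a.

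The libraries of a group did not behave alike over these genes. Zscan4 OE 1 was above Zscan4 OE 2 in 7 of 7 genes, as it was in 68.9% of tested protein-coding rows. It was the highest library for 5 genes, and control 1 for the other 2. Exon reads took 12.8% of the total in Zscan4 OE 1 and 9.93% in Zscan4 OE 2, and the part of that gap in these values was not tested. With library 1 of Zscan4 OE left out, 5 of 7 genes had a difference above 0 and 3 had the remaining Zscan4 OE value above both controls, as did 31.7% of all tested rows. With control 2 left out 5 of 7 had a difference above 0 and 4 had both Zscan4 OE values above control 1, as did 34.5% of rows. With control 1 left out the counts were 7 and 5 (39.7% of rows), and with Zscan4 OE 2 left out they were 7 and 5 (39.6% of rows). When reads were divided by exon reads in place of library totals, 3 genes again had both Zscan4 OE values above both controls.

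**Figure D2:**
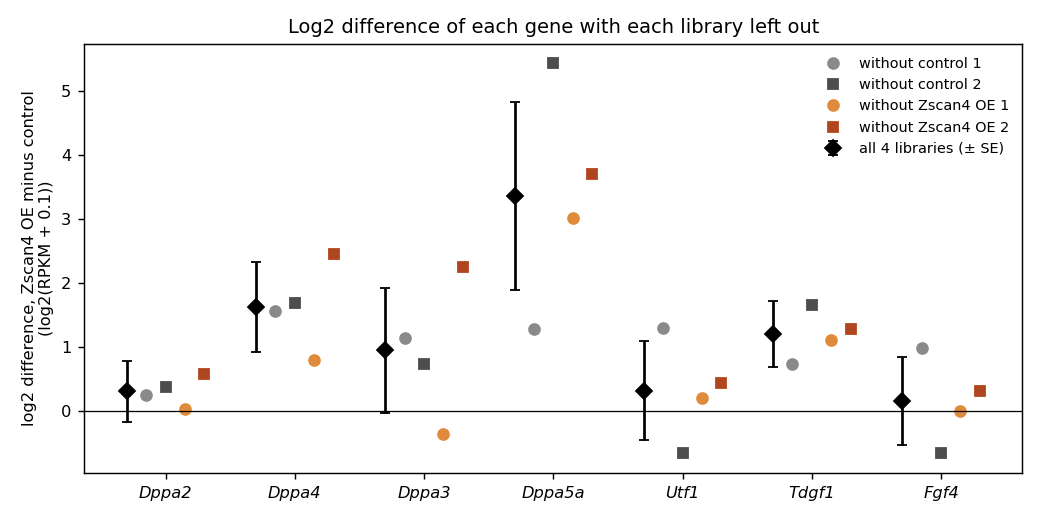
Log2 difference between Zscan4 OE and control on the log2(RPKM + 0.1) scale (y axis) for each gene (x axis), with all 4 libraries (diamonds, bars of 1 SE) and with each library left out in turn. Tdgf1, Dppa4, Dppa5a and Dppa2 lie above 0 in each fit, whereas Utf1 and Fgf4 fall below 0 without control 2 and Dppa3 without Zscan4 OE 1.

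The values as deposited gave another picture of the same reads. In them each value had been divided by 1 of 8 library totals that took turns from row to row and column to column, so that a gene's 4 values were not on 1 scale. As deposited, both Zscan4 OE values lay above both controls in 7 of 7 genes, against 3 of 7 after rescaling. The same held for 47.7% of all tested rows as deposited and for 64.8% of protein-coding rows with 20 reads or more. The largest shift was in Utf1, where Zscan4 OE 2 was 12.3 RPKM as deposited and 2.66 after rescaling, 4.62 times less, while control 1 was 1.68 as deposited and 4.61 after. Fgf4 in Zscan4 OE 1 was 7.67 RPKM as deposited and 2.26 after rescaling. Only the row of Tdgf1 had each library's own total, so its 4 values were the same in both forms. The log2 difference as deposited was 2.32 for Utf1, 1.77 for Fgf4, 1.66 for Dppa2, 1.93 for Dppa3, 2.98 for Dppa4 and 4.20 for Dppa5a, beside a median of 1.40 (log2) over all rows tested, and 0 of the 7 genes passed (limma adjusted p of 0.332 to 0.413).

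**Figure D3:**
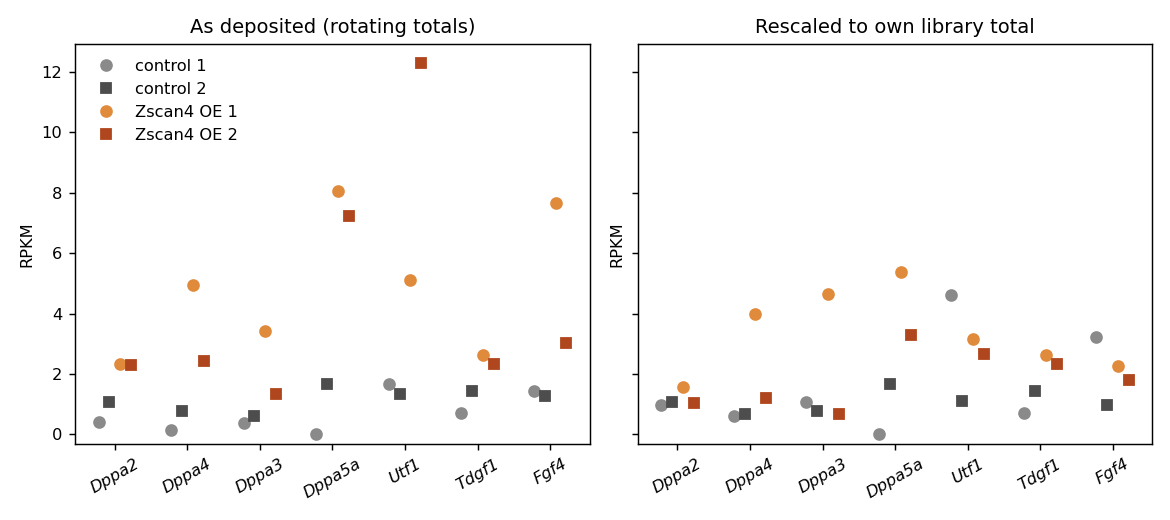
RPKM (y axis) of each gene (x axis) in the 4 libraries, as deposited on the left and after rescaling to each library's own total on the right. As deposited the Zscan4 OE points are above the control points for each of the 7 genes, and after rescaling this holds for Dppa4, Dppa5a and Tdgf1, with Tdgf1 the same in both panels.

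The genes next to these 7 were read for the level of the surrounding chromatin, and no neighbour passed either. Morc1, a germline chromatin gene 111723 bp after Dppa2, had 1.73 and 1.14 RPKM in Zscan4 OE, both above its control values of 0.927 and 1.02. Around Dppa3 the groups overlapped in Gdf3, a TGF-beta family growth factor gene (3.89, 1.56, 3.43 and 2.02 RPKM in the order control 1, control 2, Zscan4 OE 1 and 2), and in Nanog (1.26, 0.922, 2.23 and 1.09 RPKM). Beside Dppa5a the values on 1 side did not follow it, and the other side had too few reads to tell. Ooep, a maternal KH-domain gene 8703 bp away, had 0.519 and 0.573 RPKM in Zscan4 OE, both below its control values of 0.881 and 1.13. Gsta2, a glutathione transferase gene on the other side, had 0, 1, 0 and 2 reads. Beside Tdgf1, Lrrc2, which starts 5386 bp after it, had 1.48 and 1.14 RPKM in Zscan4 OE, again below its control values, 3.26 and 1.65. Fam240a on the other side had 1 to 5 reads in each library and overlapping groups. Kndc1, before Utf1, and Fgf15, after Fgf4, had overlapping groups, and Fgf3, before Fgf4, had Zscan4 OE values of 0.715 and 0.965 RPKM, below its control values of 1.22 and 1.18. The adjusted p of these neighbours ran from 0.869 to 0.993 (limma), and the share of rows with both Zscan4 OE values below both controls was 10.1%. Differences between a gene and its neighbour were not tested.

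**Figure D4:**
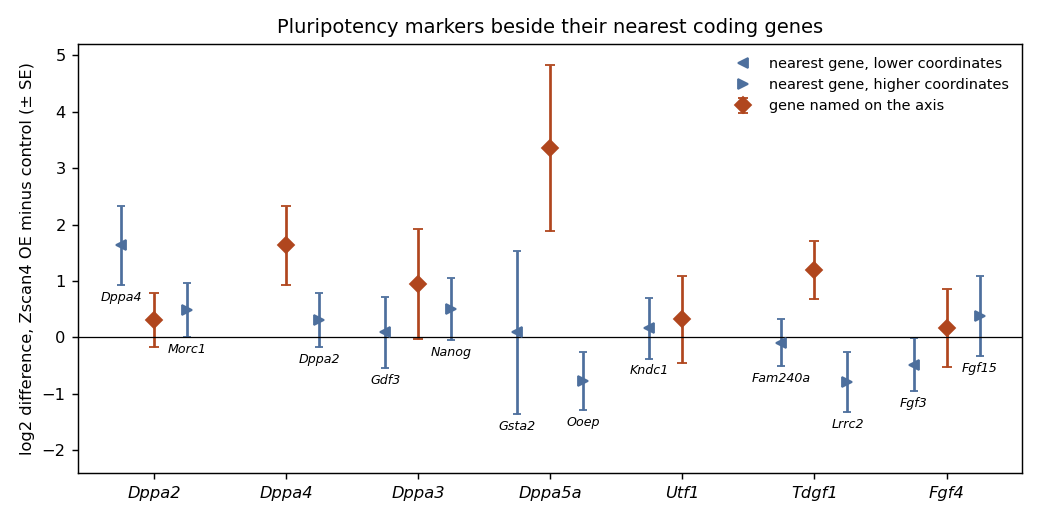
Log2 difference between Zscan4 OE and control (y axis, bars of 1 SE) for each gene (diamonds) and its nearest protein-coding gene on either side (triangles), where a row was used. Ooep and Lrrc2, next to Dppa5a and Tdgf1, have differences of −0.77 and −0.79, beside 3.36 and 1.20 for the genes themselves.

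Promoter windows from RefSeq (GRCm38.p6) were matched for 3 of the 7 genes, Utf1, Fgf4 and Tdgf1. They are shown because they end where the counted gene begins, and so give the sequence that exon reads leave out. Each is the 250 bases before the gene's start, 5′ to 3′ on the gene's strand, with CpG dinucleotides in capitals. The windows are chr7:139943606-139943855 (plus strand) for Utf1, chr7:144861136-144861385 (plus strand) for Fgf4 and chr9:110946159-110946408 (minus strand) for Tdgf1.
Utf1: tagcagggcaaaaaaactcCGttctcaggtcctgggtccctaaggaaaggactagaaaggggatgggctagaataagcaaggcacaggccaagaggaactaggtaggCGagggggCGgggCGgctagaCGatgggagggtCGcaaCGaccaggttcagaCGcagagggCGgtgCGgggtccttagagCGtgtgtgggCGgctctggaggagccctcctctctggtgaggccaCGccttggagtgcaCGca
Fgf4: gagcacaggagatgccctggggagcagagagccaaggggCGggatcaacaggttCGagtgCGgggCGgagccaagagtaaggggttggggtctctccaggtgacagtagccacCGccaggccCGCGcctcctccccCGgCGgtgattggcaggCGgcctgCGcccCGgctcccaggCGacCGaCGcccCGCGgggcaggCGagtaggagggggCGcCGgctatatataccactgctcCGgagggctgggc
Tdgf1: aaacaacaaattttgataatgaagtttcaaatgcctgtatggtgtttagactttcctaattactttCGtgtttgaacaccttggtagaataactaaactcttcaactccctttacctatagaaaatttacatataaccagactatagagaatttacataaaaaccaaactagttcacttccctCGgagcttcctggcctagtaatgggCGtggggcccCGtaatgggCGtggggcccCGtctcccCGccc
Utf1 had 14 CpG and 61.6% G+C, Fgf4 had 21 and 71.2%, and Tdgf1 had 7 and 42%, against medians of 6 CpG and 52.4% over 32851 windows of the same length. The window of Tdgf1 holds a repeat of 19 bases in direct copies that start 50 and 31 bases before the gene. On both strands the letters GGGCGG (GC box) were found in all 3 windows, and in 32.7% of all windows. Utf1 had 4 matches, of which a pair at 138 and 133 bases before the start overlap by 1 base, Fgf4 had 2 and Tdgf1 had 1. CCAAT was found in Fgf4 alone of the 3, and in 33.8% of all windows. The octamer ATGCAAAT (1.6% of all windows), TATAAA (12.4%), AAGGTCA (4.08%), GGGTGG (28.1%) and ACAAAG (16.5%) had no match in these windows. A match is a description of letters and not a binding site.

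The core pluripotency factors are genes that act with or on these markers. Of 20 tested factors 9 had a difference above 0 and 11 below, beside 62% of all tested rows above 0, and 0 passed. Their median was −0.02, or −0.30 relative to the median of all rows. Among those with 20 reads or more Zfp42 (Rex1), a zinc finger marker of naive stem cells, stood highest, with a mean of 6.39 ± 2.43 RPKM in Zscan4 OE against 3.26 ± 1.76 in controls. Nr0b1 (Dax1), a nuclear receptor that binds Pou5f1, stood lowest, with 0.686 ± 0.331 against 1.87 ± 1.03 (SD, n = 2).

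The Nodal pathway, in which Tdgf1 acts, had 10 of 19 tested genes above 0 and 9 below. Its median was 0.03, or −0.25 relative to all rows. Smad4, the shared signal transducer, had 0, 7, 13 and 13 reads in the order control 1, control 2, Zscan4 OE 1 and 2. Lefty2, the secreted Nodal inhibitor, averaged 0.539 ± 0.0114 RPKM in Zscan4 OE against 0.937 ± 0.206 in controls (SD, n = 2). The FGF pathway downstream of Fgf4 had 15 of 24 above 0 and 9 below, with a median of 0.16, or −0.12 relative to all rows. Map2k1, the kinase that activates Erk, averaged 1.58 ± 1.12 against 0.532 ± 0.0338 in controls, and Fgf5, the FGF of primed epiblast, 0.674 ± 0.145 against 1.18 ± 0.0772 (SD, n = 2). No gene of either pathway passed, and at an unadjusted p under 0.05 there were 0 and 1 (limma).

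The 2-cell program that Dppa2 and Dppa4 lie upstream of had few reads. Part of its list is families of similar copies, such as Zscan4 and Usp17l. How reads that match several copies were counted is not stated, so a listed 0 need not mean closed exons. Of the program's 26 genes with a row, 9 were at 0 in all libraries. There were 11 tested, 7 above 0 and 4 below, with a median of 0.37. Relative to the median of all rows this was 0.09, and it ran from −0.24 without Zscan4 OE 1, or with no filter on low values, to 0.65 without control 2 or with voom. Summed reads came to 17.9 and 15.8 RPM (reads per 1000000 of the library total) for the controls against 26.9 and 20.6 for Zscan4 OE. The counting intervals of control 1 (10.8 to 28) and Zscan4 OE 2 (16.8 to 25) overlapped. Of the pairs between the groups, only control 2 (11.6 to 21.1) and Zscan4 OE 1 (21.8 to 32.8) lay apart. Zfp750, an epidermal differentiation factor gene, had 0, 5, 15 and 21 reads, and Pramef12 averaged 2.18 ± 1.57 RPKM in controls against 1.54 ± 0.266 in Zscan4 OE (SD, n = 2). Genes of DNA methylation and of regulators tied to Dppa2 and Dppa4 had 11 of 16 above 0. Their median was 0.34, or 0.06 relative to all rows. Dnmt3l, a cofactor of the DNA methyltransferases, had Zscan4 OE values of 4.27 and 3.21 RPKM, clear of its control values of 1.58 and 2.07, and Cxxc1, a CpG-binding protein gene, averaged 2.25 ± 0.386 in controls against 1.63 ± 0.096 (SD, n = 2). No gene of these lists passed, and none had an unadjusted p under 0.05 (0 of 11 and 0 of 16, limma).

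Genes that share a stage with Dppa3 and Dppa5a were mixed. Maternal complex and KH-domain genes had 4 of 9 tested above 0 and a median of −0.29, or −0.57 relative to all rows. They ran from Tle6 (1.63 ± 0.722 and 2.47 ± 1.34 RPKM) to Nlrp2 (1.66 ± 0.686 and 0.646 ± 0.0917, SD, n = 2), both maternal genes. Germ cell genes had 11 of 12 above 0 and a median of 0.62. Relative to the median of all rows this was 0.35, and it ran from −0.04 with quantile normalization to 0.60 without control 2. It was −0.0044 without control 1 and 0.06 without Zscan4 OE 1. Sycp3, a meiotic chromosome protein gene with 0, 9, 6 and 5 reads, had a log2 difference of 1.17 although its mean RPKM was lower in Zscan4 OE (1.06 ± 0.36) than in controls (1.23 ± 1.73, SD, n = 2), and Nanos3, a germ cell survival gene, was at 3.85 ± 1.76 and 1.7 ± 0.713 RPKM. Dppa1, another gene with the Dppa name, had 0, 3, 5 and 1 reads, and Dppa3-ps had 1 read, in Zscan4 OE 2. None of these genes passed, and none had an unadjusted p under 0.05 (0 of 9 and 0 of 12, limma).

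Markers of other cells that stem cell cultures can hold were summed in the same way. For 14 fibroblast markers the sums were 76.3 and 67.8 RPM (controls) against 63 and 67.1 (Zscan4 OE), with 7 markers above 0 and 7 below. Both Zscan4 OE sums lay below both control sums. Their counting intervals overlapped between the groups (58.7 to 78 in control 2 and 60.1 to 74.8 in Zscan4 OE 2). Sums overlapped between the groups for 13 primitive endoderm markers (98.9, 86.8, 93.7 and 81.6 RPM in the same order, 7 above 0). They also overlapped for 10 trophectoderm markers (31.1, 22.4, 30.8 and 26.7, 7 above 0) and 10 primed epiblast markers (43.3, 26.5, 29.1 and 22.7, 3 above 0, median −0.34). Relative to all rows the medians were −0.21 for fibroblast, −0.26 for primitive endoderm, 0.06 for trophectoderm and −0.62 for primed epiblast markers. The genes at either end of these lists, in reads per library, were Col1a2 (9, 11, 29 and 51) and Col3a1 (4, 12, 9 and 10), both fibroblast collagens. For primitive endoderm they were the vitamin B12 receptor gene Amn (2, 1, 5 and 18) and Sox17 (19, 43, 36 and 37). For trophectoderm they were Cdx2 (2, 1, 8 and 14) and Hand1 (4, 13, 7 and 9), and for primed epiblast Dnmt3b (2, 11, 11 and 23) and Otx2 (6, 14, 13 and 8). In each of these 4 lists 0 genes passed (limma), none of the listed markers was at 0 in all libraries, and their part in the values of the 7 genes was not tested. With an unadjusted p under 0.05 there was 1 gene, in the trophectoderm list.

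The row closest to each gene over the 4 libraries, among 15523 others with 20 reads or more and a symbol that is not a predicted one, was found by Euclidean distance on log2(RPKM + 0.1). For Dppa2 it was Irf5 (distance 0.10), for Fgf4 Nr2f6 (0.12), for Utf1 Actl6a (0.22), for Tdgf1 Smco4 (0.23), for Dppa4 Fam89b (0.47), for Dppa3 Imp3 (0.69) and for Dppa5a Fkbpl (0.80). Imp3 shared the pattern of Dppa3 of a single high library, with 1, 2, 21 and 2 reads, and Fkbpl that of Dppa5a, with 0, 7, 18 and 14 reads. Dppa5a had the most distant match of the 7 genes. With 4 libraries such matches describe these values only.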

How the data were processed

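The authors deposited 1 value per gene and library, called RPKM per the labels. Trimmomatic, Bowtie2 and featureCounts with build mm10 are named per the submitters' processing notes. Versions, read filters, Tn5 shift, the handling of reads matching several places and the annotation are not stated there.

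Each deposited value is whole reads over a feature length and a library total, and short RNA genes of known length showed 8 totals rotating through the table. Whole reads came from exactly 1 rotation in 38361 of 38361 rows with at least 2 non-zero values. Reads and lengths may lack a common factor (86% of 1167 short RNA genes gave the annotated length). Totals were assigned to columns, in rotation order, so that exon shares were most alike (highest over lowest 1.36, next best 4.17), and values were rescaled to their own total. Levels between libraries rest on that assignment.

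Rows averaging 0.1 RPKM or more (42989) were tested in both directions with limma 3.58.1 (R 4.3.3, eBayes with trend, no covariate) on log2(RPKM + 0.1). On this scale the difference of a low gene depends on the constant, which shrinks differences between low values but lets a single 0 weigh heavily. The threshold was a Benjamini-Hochberg adjusted p of 0.05. Scripts were tested on simulated data. Alternatives changed the pseudocount, filter, scaling, tool, replicate block and libraries.

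Named by rule beside the 7 genes were their copies, nearest coding neighbours, the gene at either end of each list (20 reads or more) and the row closest in pattern. Genes, lists and tests were chosen with earlier results of these data known, so lists are described and not tested.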

Additional observations from a re-analysis of the deposited data

How the results depend on the processing

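None of the 7 genes passed under any alternative run. The fits that leave out a library compare 1 library with 2, so the lone library is assumed to vary like the other group and 1 residual degree of freedom is left. They weigh little as evidence that a call is absent, and as little that a call is real. With 1 library left out, rows were called only where a Zscan4 OE library was dropped, so spread came from the 2 controls. Of the tested rows 35.8% were at 0 in control 1 and 20.1% in control 2. The part of equal control values in those calls was not tested. The counts of rows called over the whole table were 0 higher and 0 lower, and they moved in these fits: 4 higher and 1 lower among rows with 20 reads or more, 0 and 1 with voom on those rows, and from 0 to 4530 higher and from 0 to 6 lower with 1 library left out. Dppa2, Dppa4, Dppa5a and Tdgf1 kept a log2 difference above 0 in every fit. That of Dppa2 was barely so, at 0.04, with each library centred on its median and without Zscan4 OE 1. The difference of Fgf4 was −0.12 with each library centred on its median, and with 1 library left out it ran from −0.66 without control 2, through −0.0022 without Zscan4 OE 1, to 0.98. That of Utf1 ran from −0.65 without control 2 to 1.30, and that of Dppa3 from −0.35 without Zscan4 OE 1 to 2.25. The cause was not tested. Relative to all rows some list medians also turned sign. They ran from −0.60 to 0.13 for core pluripotency factors, −0.48 to 0.09 for the Nodal pathway and −0.34 to 0.03 for the FGF pathway. The range was −0.20 to 0.20 for DNA methylation genes and −0.17 to 0.31 for trophectoderm markers. Those of 2-cell and germ cell genes are given above. Below 0 in every fit were maternal complex and KH-domain genes (−0.71 to −0.04) and primed epiblast markers (−0.93 to −0.22). The same held for fibroblast markers (−0.54 to −0.05) and primitive endoderm markers (−0.54 to −0.08). Counts of genes above 0 and of genes with both Zscan4 OE values above both controls, given under the alternatives, were added after seeing the data.

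The labels number the libraries 1 and 2 in each group without saying that a number marks a shared culture or day. The deviations of same-numbered libraries from their group means had a Pearson r of 0.129 across 19011 rows, which are not independent. At these read counts r also holds counting error, so it cannot decide whether the numbers mark a pairing. The libraries numbered 1 had exon shares of 12.4% (control) and 12.8% (Zscan4 OE), and those numbered 2 had 9.38% and 9.93%. Mean RPKM of tested protein-coding rows was likewise 1.24 and 1.28 against 0.892 and 0.958. The source of this shared split was not tested. With the replicate number as a block 0 rows were higher and 0 lower, and 0 of the 7 genes passed. Depth limits each gene here: 3 reads, the one-sided 95% limit of a count of 0, are 2.83 RPM in control 1 and 0.612 in Zscan4 OE 2.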
